A study of Mus musculus with 24 samples.

Results

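The nitric oxide and cGMP pathway was examined in uninjured carotid arteries through 10 genes: the nitric oxide synthases Nos1, Nos2 and Nos3, the synthase inhibitor Cav1, the soluble guanylyl cyclase subunits Gucy1a1 and Gucy1b1, the kinase Prkg1, the phosphodiesterase Pde5a, and the dimethylarginine hydrolases Ddah1 and Ddah2. They were chosen by symbol, by mapping the Ensembl identifiers of the count tables to mouse GENCODE release 21, and make up 10 of the 55421 genes listed. All 10 passed the filter on low counts, which left 25056 genes for testing, and each of them is described here.

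In the artery wall, endothelial nitric oxide synthase (the product of Nos3) makes nitric oxide from arginine. The gas diffuses to smooth muscle and activates soluble guanylyl cyclase, an enzyme built of an alpha and a beta subunit that makes cGMP. The cGMP-dependent kinase relaxes the muscle, phosphodiesterase 5 breaks cGMP down, caveolin-1 holds the synthase inactive in caveolae, and the dimethylarginine hydrolases are known for clearing methylarginines that inhibit the synthases. Estrogens are known regulators of this pathway in endothelium, by transcription and by rapid signaling from the membrane.

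The 24 libraries came from ovariectomized female C57BL/6 mice aged 9 weeks, with 6 libraries in each of 4 groups. The control group (OVX) received vehicle, and the others received 17β-estradiol (E2), estetrol (E4, a natural estrogen) or tamoxifen (TAM, a selective estrogen receptor modulator). The E4 libraries were assigned by title, because their treatment field reads as that of the controls. Each library carries its own animal number, so p-values measure the spread between these animals. Treatment lasted 3 weeks by the text of the series and 2 weeks by the methods of the study, and the E2 and E4 pellets held different amounts. The study set these amounts to give similar estrogenic effects, judged by uterine weight. The dose and route of tamoxifen for these libraries are not given in the sources used here. The animal numbers fall in 2 series, up to 20 and from 24, and whether these were handled apart is not stated.

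Total counts ran from 24647246 to 64221401, with a median of 45156107. Markers of endothelium and smooth muscle were present in every group: the median of Pecam1 in OVX was 243 CPM (counts scaled to the size of the library), and that of Myh11 was 841 CPM. Greb1, an estrogen-induced gene, had medians of 1.59 CPM in OVX, 7.13 in E2, 3.34 in E4 and 1.66 in TAM. Medians of Pgr, the progesterone receptor gene, were 3.86 CPM in OVX, 8.33 in E2, 4.92 in E4 and 6.41 in TAM. The carotid samples also held other tissue. The mean log2 CPM of 10 sympathetic ganglion markers was 1.51 in the OVX library C5 and 4.10 in the TAM library C35, while it lay between 7.06 and 8.97 in the other 22 libraries. Of the other lists, 7 of 8 B cell markers and 4 of 6 fibroblast markers were lower in E4 than in OVX (12.5% of all tested genes were called lower). All 6 macrophage markers were higher in E2 than in OVX (4.14% of all tested genes were called). In E4 against E2 (12.6% called), all 8 T cell and all 6 macrophage markers were lower, and 3 of 6 Schwann cell markers were higher. The T cell list was highest in the E2 library C9 (mean log2 CPM 4.92).

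Promoter sequences are shown for the hydrolases and the cyclase subunits, 2 pairs whose members are set against each other below. They are the 250 bases before the transcription start in RefSeq (GRCm38.p6), printed 5′ to 3′ on the strand of the gene. Capitals mark single arms of the estrogen response element (GGTCA or TGACC) and GC boxes (GGGCGG or CCGCCC).
Ddah1, chr3:145758442-145758691, plus strand: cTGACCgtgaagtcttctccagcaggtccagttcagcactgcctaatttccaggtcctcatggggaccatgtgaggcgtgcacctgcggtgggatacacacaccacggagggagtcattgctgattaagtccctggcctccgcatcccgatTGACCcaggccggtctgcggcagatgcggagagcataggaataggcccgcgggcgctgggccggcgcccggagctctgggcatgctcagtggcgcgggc
Ddah2, chr17:35058785-35059034, plus strand: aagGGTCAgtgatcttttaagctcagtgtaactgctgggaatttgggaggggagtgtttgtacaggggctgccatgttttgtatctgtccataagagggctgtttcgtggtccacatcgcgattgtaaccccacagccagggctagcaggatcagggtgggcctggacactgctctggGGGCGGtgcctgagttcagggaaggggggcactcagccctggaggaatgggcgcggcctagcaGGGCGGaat
Gucy1a1, chr3:82145651-82145900, minus strand: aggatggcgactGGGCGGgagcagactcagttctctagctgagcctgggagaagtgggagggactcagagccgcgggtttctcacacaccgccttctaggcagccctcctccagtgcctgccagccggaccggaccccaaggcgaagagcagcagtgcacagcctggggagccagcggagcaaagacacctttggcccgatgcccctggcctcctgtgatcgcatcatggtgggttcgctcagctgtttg
Gucy1b1, chr3:82074712-82074961, minus strand: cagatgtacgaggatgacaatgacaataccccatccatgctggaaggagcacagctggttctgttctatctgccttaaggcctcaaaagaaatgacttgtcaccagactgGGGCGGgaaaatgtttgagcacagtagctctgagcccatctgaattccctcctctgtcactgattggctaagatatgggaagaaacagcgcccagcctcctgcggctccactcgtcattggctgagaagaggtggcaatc

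Ddah1 held 2 such arms and no GC box, whereas Ddah2 held 1 arm and 2 GC boxes. Gucy1a1 and Gucy1b1, which lie close together on chromosome 3 and on the same strand, each held 1 GC box and no arm in these windows. The Gucy1a1 window is that of the more upstream of its 2 starts, and the other one held 1 arm. RefSeq promoters were matched for 8 of the 10 genes (not Nos2 or Nos3), 11 promoters in all because some genes have more than 1 start. The only Nos1 window (chr5:117866589-117866838), which held 1 arm, lies inside the gene, whose annotated start is 117781032. It may therefore not be the main promoter of Nos1. The full palindrome GGTCANNNTGACC, which contains both arms, was in 0 of the 11 and in 0.0639% of all 32851 promoters. A single arm was in 6 of the 11, against 35.2% of all promoters, and a GC box in 7 of the 11, against 32.7%. These letter matches describe the windows and are not binding sites.

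Few of the 10 genes differed between groups beyond the spread between animals. With E4, Nos3 was lower than in OVX (1 of 10 genes called at an adjusted p under 0.05, where 22% of all tested genes were called and 12.5% were called lower), and 9 did not pass. With E2, 0 of 10 passed (4.14% of all tested genes), and with TAM, 0 of 10 passed (2.23%). The E4 and E2 arteries differed in 0 of 10 genes (12.6% of all tested genes), TAM and E2 in 0 of 10 (6.4%), and TAM and E4 in 0 of 10 (0.343%). The test was edgeR's quasi-likelihood test over all tested genes. At an unadjusted p under 0.05, 1 of 10 passed with E2 (16% of all tested genes), 4 with E4 (36.3%) and 1 with TAM (21%), each against OVX. In E4 against E2 there were 2 (30.2%), in TAM against E2 there was 1 (21.2%), and in TAM against E4 there were 3 (9.12%). DESeq2 called Nos3 and Nos1 in E4 against OVX, where it called 24.9% of all tested genes. It called 0 of the 10 in E2 against OVX (6.17%), TAM against OVX (6.35%), E4 against E2 (16.1%), TAM against E2 (8.99%) and TAM against E4 (0.814%).

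In every comparison the values of the groups overlapped for all 10 genes. Groups that did not overlap were found for 2.82% of all tested genes in E2 against OVX, 9.38% in E4 against OVX and 2.58% in TAM against OVX, and for 6.16% in E4 against E2, 4.23% in TAM against E2 and 0.922% in TAM against E4. The median log2 fold change of the 10 genes was 0.04 with E2, -0.13 with E4 and 0.13 with TAM, and that of all tested genes was 0.01, -0.01 and -0.00. These 3 comparisons share the OVX libraries.

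**Figure D1:**
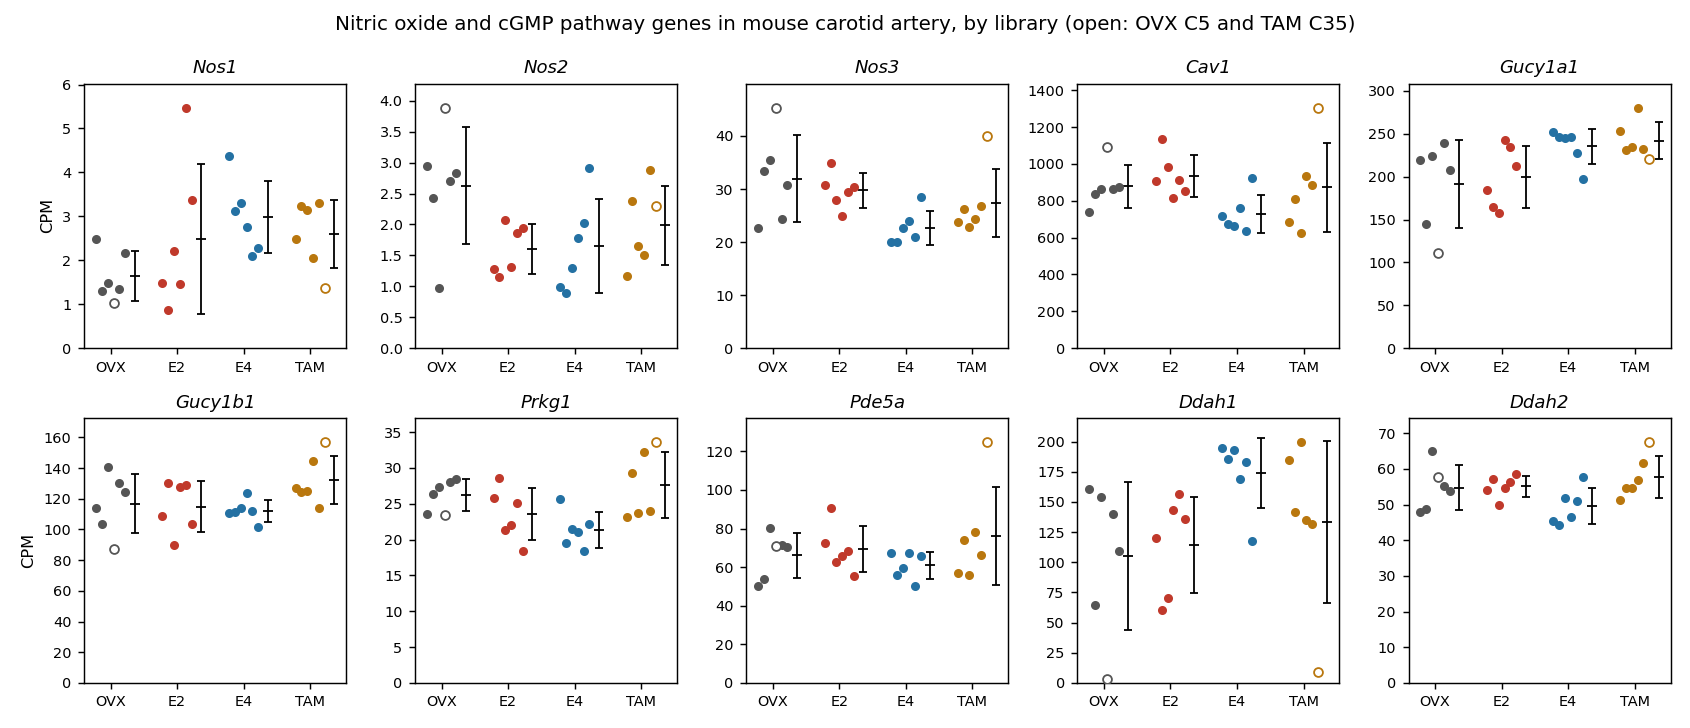
CPM of each gene (vertical axes, from 0) in the 6 libraries of OVX, E2, E4 and TAM. Points are libraries, bars are the mean ± SD, and open symbols mark OVX C5 and TAM C35. Nos3 lay between 19.95 and 28.4 CPM in E4 and between 22.6 and 45.3 in OVX, and Ddah1 was near 0 in the libraries with open symbols.

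Nos3 (ENSMUSG00000028978, chr5:24364810-24384474, plus strand, GRCm38) was the most abundant synthase per kb of exon. It ranged from 22.6 to 45.3 CPM in OVX (median 32.1), from 24.97 to 34.9 in E2 (median 29.9), from 19.95 to 28.4 in E4 (median 21.8) and from 22.8 to 40.1 in TAM (median 25.3). The E4 group lay lowest, although its upper libraries overlapped the lower OVX libraries. The mean was 31.98 ± 8.25 CPM in OVX and 22.7 ± 3.22 in E4 (SD, n = 6), a log2 fold change of -0.49 with a standard error of 0.15 (edgeR adjusted p = 0.0235), which is 0.71 times the OVX level. In bulk tissue, fewer cells of a type and less RNA per cell cannot be told apart. Two-sided exact permutation tests of single genes in E4 against OVX, unadjusted, gave p = 0.0216 for Nos3. Among the genes not called they gave 0.00866 for Prkg1, 0.0108 for Nos1, 0.0281 for Ddah1, 0.0346 for Cav1 and 0.0714 for Gucy1a1. The remaining p-values of this test were 0.0974 for Nos2, 0.141 for Ddah2, 0.403 for Pde5a and 0.699 for Gucy1b1. The share of all tested genes under 0.05 by this test was not computed, and by edgeR, unadjusted, it was 36.3%.

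E2 arteries held 29.7 ± 3.27 CPM of Nos3, close to the OVX mean. The log2 fold change of E2 against OVX was -0.11, with a 95% interval from -0.42 to 0.21 (edgeR adjusted p = 0.851). Set beside E2, E4 arteries had a log2 fold change of -0.39, with an interval from -0.70 to -0.08, which did not pass (edgeR adjusted p = 0.0876). The pellets held different amounts of the estrogens, which the study had set for similar effects on the uterus. In TAM the mean was 27.4 ± 6.41 CPM, and the log2 fold change against OVX was -0.23 (-0.54 to 0.09, adjusted p = 0.406). It was -0.36 (adjusted p = 0.104) without TAM C35 and -0.10 (0.762) without OVX C5, and with the smooth muscle list in the fit (the mean log2 CPM of its markers as a covariate) it passed (-0.45, 0.00658).

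The highest Nos3 value in OVX and in TAM belonged to the libraries with little ganglion RNA, C5 at 45.3 CPM and C35 at 40.1 CPM. Without both libraries, E4 against OVX was -0.36 on the log2 scale (edgeR adjusted p = 0.0254), and E4 against E2 was -0.38 (adjusted p = 0.0148). The latter also passed with only the 2 groups in the fit (-0.39, adjusted p = 0.0183) and with the ganglion (-0.29, 0.0411), endothelial (-0.30, 0.0415) or smooth muscle list (-0.51, 0.000325). It was -0.28 (0.384) with the B cell list and -0.08 (0.83) with the adipocyte list. It did not pass with DESeq2 (-0.37, 0.0846), DESeq2 size factors in edgeR (-0.37, 0.0985), no filter on low counts (-0.38, 0.144) or the number series as a covariate (-0.39, 0.0919). Nor did it pass within the first number series (-0.58, 0.0648) or the second (-0.19, 0.942). Leaving out single libraries gave -0.58 to -0.36 in E4 against OVX, and the call was lost without OVX C3 (adjusted p = 0.0512), OVX C5 (0.0764) or E4 C19 (0.0536). Within the number series the value of E4 against OVX was -0.71 in the first (adjusted p = 0.0313) and -0.16 in the second (0.827), where OVX has 2 libraries.

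Of 10 endothelial markers, all detected, 2 were lower in E4 than in OVX, 0 were higher and 8 did not pass, with a median log2 fold change of -0.22. Of all tested genes, 22% were called in this comparison and 12.5% were called lower, so this count is near that share. Their mean log2 CPM was 5.48 to 6.12 in OVX and 5.20 to 5.82 in E4. With this list in the fit, Nos3 in E4 against OVX was -0.27 (adjusted p = 0.0614), and with the ganglion list it was -0.25 (0.0816). The B cell list, at -0.52 to 2.06 in OVX and -1.50 to -0.17 in E4, gave -0.29 (0.586) in a fit that called 0.471% of all genes, and the adipocyte list, at 8.09 to 9.02 and 8.14 to 8.58, gave -0.36 (0.0644). With the smooth muscle list it was -0.50 (0.00037). The call of Nos3 thus passed with the smooth muscle list and was lost with each of the other 4. The fibroblast list was at 8.79 to 9.53 in OVX and 8.22 to 8.96 in E4. In E4, 4 of 6 of its markers were lower than in OVX (median log2 fold change -0.61, 22% of all tested genes called). Against E2, 4 of 6 were lower (-0.55, 12.6% of all tested genes called). The part of this list in the E4 values of Nos3, Cav1, Cav2 and Prkg1 was not tested.

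Exons of Nos3 share 1040 bases with the antisense gene Gm15587 and 294 bases with Atg9b, both on the opposite strand. Counting by strand is not given in the sources used here. Nos3 counts held decimals in some libraries (1309.5 in OVX C3). So did those of Nos1 and Pde5a, whose overlapping genes also lie on the opposite strand. Cav1 and Ddah2, which have no overlapping gene, had whole counts. Reads in these stretches thus appear to have been shared between genes of both strands, and they cannot be assigned with certainty. Gm15587 was at 5.71 ± 1.60 CPM in OVX and 4.10 ± 0.567 in E4, a log2 fold change of -0.48 (adjusted p = 0.0527). Atg9b, an autophagy gene, was at 3.62 ± 0.547 and 3.05 ± 0.537 CPM, a log2 fold change of -0.24 (adjusted p = 0.216). In E4 against E2, Atg9b was lower and passed (-0.43, edgeR adjusted p = 0.0469), and Gm15587 did not (-0.38, 0.149). Gm15587 also had the pattern most like Nos3 over the 24 libraries (Pearson's r of log2 CPM 0.95), a likeness that shared reads and library composition can both touch.

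**Figure D2:**
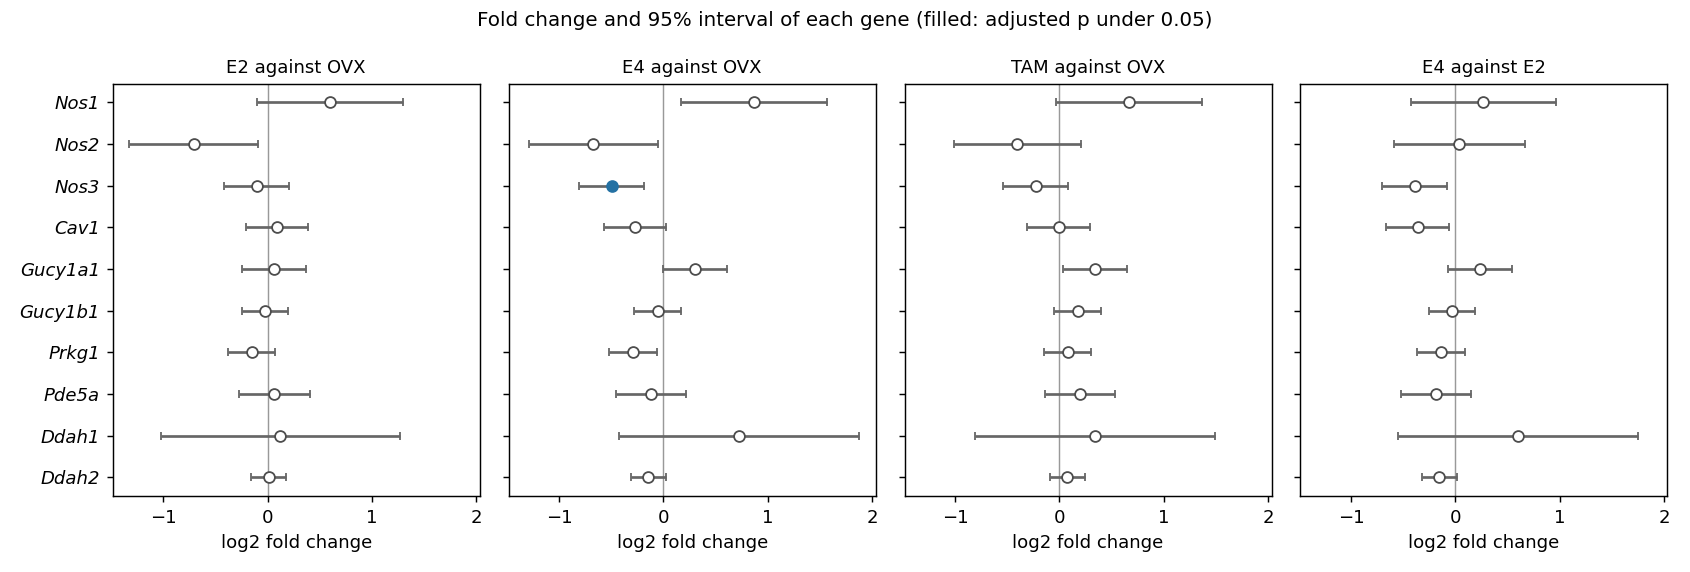
Log2 fold change (horizontal axes) of each gene in E2, E4 and TAM against OVX and in E4 against E2, with its 95% interval; filled symbols passed at an adjusted p under 0.05. Nos3 in E4 against OVX, at -0.49, is the filled symbol, and the Ddah1 intervals are the widest.

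Nos1, the neuronal synthase, and Nos2, the inducible synthase of activated macrophages and other cells, were scarce. Nos1 ranged from 1.03 to 2.50 CPM in OVX (median 1.41), from 0.874 to 5.47 in E2 (1.85), from 2.11 to 4.37 in E4 (2.93) and from 1.37 to 3.31 in TAM (2.81). The E4 values lay mostly above the OVX values, with an overlap. The log2 fold change was 0.87 with E4 (SE 0.34, edgeR adjusted p = 0.0676), 0.60 with E2 (0.42) and 0.67 with TAM (0.263). The E2 value was 0.20 (adjusted p = 0.905) without E2 C27, the library at 5.47 CPM. DESeq2 called Nos1 in E4 against OVX. Within the first number series E4 stood at 1.18 (adjusted p = 0.0398) and within the second at 0.46 (0.776). The ganglion-poor libraries held the least Nos1 of their groups, 1.03 CPM in C5 and 1.37 in C35, and with the ganglion list in the fit the value of E4 was 0.57 (adjusted p = 0.216).

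Nos2 ranged from 0.981 to 3.89 CPM in OVX (median 2.77), from 1.16 to 2.07 in E2 (1.59), from 0.899 to 2.92 in E4 (1.53) and from 1.17 to 2.89 in TAM (1.97). The treated groups lay toward the lower part of the OVX range, and OVX C4 was lower than all other OVX libraries. Log2 fold changes were -0.71 with E2 (SE 0.30, edgeR adjusted p = 0.219), -0.67 with E4 (0.107) and -0.41 with TAM (0.452). Without OVX C4 the value of E4 was -0.85 (adjusted p = 0.0317), and without E4 C39 it was -0.92 (0.0336). It was -0.37 (adjusted p = 0.28) with the endothelial list in the fit and -0.41 (0.284) with the adipocyte list. With the adipocyte list the value of E2 passed (-1.05, 0.0203), and that of TAM was 0.088 (0.91). With the number series as a covariate the value of E4 was -0.80 and passed (0.049), and within the series it was -1.27 (0.0674) and -0.29 (0.758). Macrophage markers were higher in E2, where their mean log2 CPM was 5.59 to 6.13, than in OVX, where it was 4.88 to 5.49. The genes most like Nos2 over the 24 libraries were Pcdh12 (r = 0.89), Btnl9 (0.83) and Rflnb (0.82).

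Cav1, which encodes the caveolar coat protein that binds and restrains the endothelial synthase, was the most abundant of the 10 per kb of exon. It ranged from 738 to 1093 CPM in OVX (median 864), from 816 to 1137 in E2 (909), from 635 to 925 in E4 (695) and from 625 to 1306 in TAM (847). The E4 median was the lowest, the lowest single library was in TAM, and the E4 libraries overlapped all other groups. The log2 fold change was -0.27 in E4 against OVX (95% interval -0.57 to 0.03, edgeR adjusted p = 0.179) and -0.36 in E4 against E2 (-0.66 to -0.06, 0.0981). Neither passed. The latter passed when C5 and C35 were both left out (-0.35, adjusted p = 0.0224), without TAM C35 alone (-0.35, 0.0454), and within the first number series (-0.56, 0.0464), and it was -0.14 (0.972) within the second. With the adipocyte list in the fit it was -0.10 (adjusted p = 0.794), and with the smooth muscle list it passed (-0.48, 0.000319). In E4 against OVX the change was -0.08 with the ganglion (adjusted p = 0.633) or the endothelial list (0.63), -0.09 with the B cell list (0.904) and -0.17 with the adipocyte list (0.399), and it passed with the smooth muscle list (-0.30, 0.00896). With E2 the change against OVX was 0.09 (adjusted p = 0.875), and with TAM it was -0.01 (0.985), with C35 the highest TAM library.

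The cyclase subunits were about equal in level per length and differed in how they varied. Gucy1a1, the alpha subunit, ranged from 111 to 240 CPM in OVX (median 214), from 157 to 243 in E2 (198), from 198 to 252 in E4 (245) and from 220 to 280 in TAM (234). The groups overlapped, and the medians of E4 and TAM were the highest. Log2 fold changes were 0.30 with E4 (SE 0.15, edgeR adjusted p = 0.145), 0.34 with TAM (0.194) and 0.06 with E2 (0.932). With the adipocyte list in the fit the E2 value passed (0.38, adjusted p = 0.0135), the E4 value was 0.15 (0.252) and the TAM value was 0.0080 (0.977). The lowest OVX library was C5 at 111 CPM, against 145 to 240 CPM in the other OVX libraries, and without C5 and C35 the change with E4 was 0.20 (adjusted p = 0.259). With the ganglion list in the fit it was 0.13 (adjusted p = 0.44), and the value in E4 against E2 was 0.15 (0.327). The change with E4 against OVX was 0.50 (0.124) within the first number series and 0.01 (0.99) within the second.

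Gucy1b1, the beta subunit that carries the heme to which nitric oxide binds, ranged from 87.4 to 140 CPM in OVX (median 119), from 89.9 to 130 in E2 (118), from 102 to 124 in E4 (112) and from 114 to 157 in TAM (126). The medians of OVX, E2 and E4 lay between 112 and 119 CPM. The log2 fold change was -0.02 with E2 (-0.25 to 0.20, edgeR adjusted p = 0.969), -0.06 with E4 (-0.28 to 0.17, 0.731) and 0.18 with TAM (-0.05 to 0.40, 0.36). C5 was the lowest OVX library and C35 the highest TAM library, and the TAM value was 0.11 (adjusted p = 0.624) without C5 and 0.056 (0.778) without both.

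The ratio of the subunits was computed in each library as Gucy1a1 over Gucy1b1 in CPM per kb of exon, a measure chosen after the values had been seen. It ranged from 0.716 to 1.08 in OVX (median 0.921), from 0.715 to 1.16 in E2 (1.01), from 1.096 to 1.28 in E4 (1.18) and from 0.792 to 1.15 in TAM (1.08). All 6 E4 libraries lay above all 6 OVX libraries, while they overlapped E2 and TAM. The mean log2 ratio was 0.39 higher in E4 than in OVX and 0.28 higher than in E2. These differences are given as a description, without p-values, because of how the measure was chosen. The share of other gene pairs whose ratios separate these groups was not computed.

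The mean log2 CPM of the ganglion list was 8.19 to 8.97 in E4, 7.40 to 8.39 in OVX other than C5 and 7.06 to 8.48 in E2. The median log2 fold change of its markers in E4 was 0.91 against OVX and 0.72 against E2. In either comparison 0 of 10 were called (22% and 12.6% of all tested genes). The ratio was 0.716 in OVX C5 and 0.792 in TAM C35, the libraries with the least ganglion RNA, and without both it was 0.32 higher in E4 than in OVX on the log2 scale. In the E2 libraries with the lowest list values, C8 (7.06) and C9 (7.27), the ratio was 0.715 and 0.985. With the ganglion list in the fit, E4 against OVX was 0.13 for Gucy1a1 and -0.10 for Gucy1b1, against 0.30 and -0.06 without it, and the ratio itself was not fitted with the list. In the first number series the log2 ratio of E4 was 0.53 higher than that of OVX and 0.51 higher than that of E2, and in the second it was 0.18 and 0.05 higher.

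**Figure D3:**
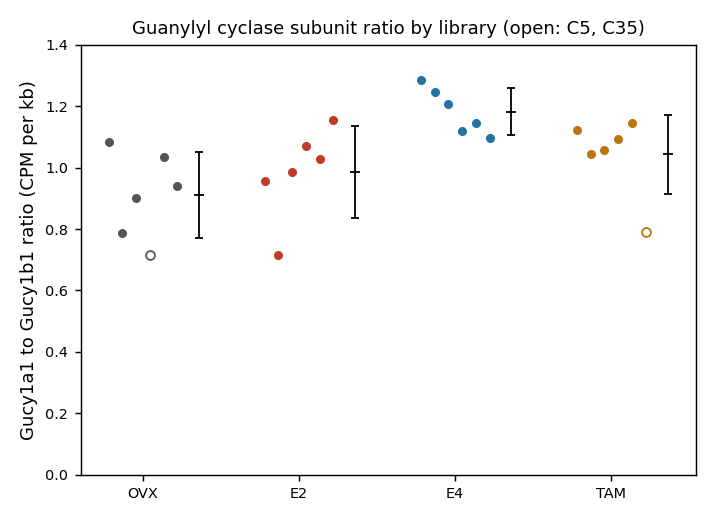
Ratio of Gucy1a1 to Gucy1b1 in CPM per kb (vertical axis, from 0) in each library of OVX, E2, E4 and TAM, with mean ± SD and open symbols for OVX C5 and TAM C35. The 6 E4 libraries lie between 1.096 and 1.28, above the OVX libraries at 0.716 to 1.08.

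Prkg1, the cGMP-dependent kinase of smooth muscle, ranged from 23.5 to 28.4 CPM in OVX (median 26.8), from 18.4 to 28.5 in E2 (23.5), from 18.5 to 25.7 in E4 (21.3) and from 23.1 to 33.6 in TAM (26.7). Most E4 libraries lay under the OVX range. The log2 fold change with E4 was -0.29 (SE 0.11, 95% interval -0.52 to -0.06), which missed the threshold (edgeR adjusted p = 0.0591). It passed without C5 and C35 (-0.31, adjusted p = 0.0405), and also without OVX C2 (-0.32, 0.0472), E2 C29 (-0.29, 0.0462) or E4 C16 (-0.35, 0.032). With the B cell list in the fit it was -0.13 (0.761). The values within the number series were -0.18 (0.352) and -0.45 (0.323). With E2 the change was -0.15 (adjusted p = 0.566) and with TAM 0.08 (0.722).

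Pde5a, the phosphodiesterase that sildenafil inhibits, ranged from 50.03 to 80.4 CPM in OVX (median 70.6), from 55.2 to 90.6 in E2 (67.1), from 50.2 to 67.2 in E4 (62.7) and from 56.1 to 125 in TAM (70.2). The groups overlapped widely, and the highest value was that of TAM C35, 1.88 times the median of the other TAM libraries. The log2 fold changes were 0.07 with E2 (-0.27 to 0.40, edgeR adjusted p = 0.933), -0.12 with E4 (-0.45 to 0.22, 0.627) and 0.20 with TAM (-0.14 to 0.54, 0.508). Without TAM C35 the TAM value was 0.01 (adjusted p = 0.969). The TAM library C35 also had the highest Cav1, Gucy1b1, Prkg1, Nos3 and Ddah2 of its group, and its smooth muscle list and Myh11 (2599.8 CPM) were the highest as well. Synpo2, an actin-binding gene of muscle, was among the 3 genes most like Pde5a (r = 0.93 over 24 libraries, 0.87 without C5 and C35).

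The hydrolases differed from each other in the libraries with little ganglion RNA. Ddah1 ranged from 3.60 to 161 CPM in OVX (median 125), from 60.7 to 157 in E2 (128), from 118 to 195 in E4 (185) and from 8.61 to 199 in TAM (138). Its lowest values, 3.60 CPM in OVX C5 and 8.61 in TAM C35, were those of the libraries with little ganglion RNA, and the median of the other libraries was 38.9 times higher in OVX and 16.4 times higher in TAM. The log2 fold change with E4 was 0.72, with a 95% interval from -0.43 to 1.87 (edgeR adjusted p = 0.358). It was 0.12 with E2 (adjusted p = 0.971) and 0.34 with TAM (0.768). The TAM value was 0.091 without OVX C5 and 0.59 without TAM C35, and with the adipocyte list in the fit it was -0.37 (0.774), and the E2 value 1.23 (0.185).

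Without C5 and C35 the E4 value of Ddah1 was 0.48 against OVX (edgeR adjusted p = 0.144) and 0.62 against E2 (0.0475). With the ganglion list in the fit the same differences were -0.11 (adjusted p = 0.517) and 0.00 (0.983). The genes most like Ddah1 over the 24 libraries were Reep1 (r = 0.997, 0.98 without C5 and C35), Slc2a3, a glucose transporter of neurons (0.996 and 0.98), and Atp1b1, a sodium pump subunit (0.996 and 0.98). The points of these correlations share library composition.

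Ddah2 varied little. It ranged from 47.8 to 64.9 CPM in OVX (median 54.6), from 49.9 to 58.5 in E2 (55.4), from 44.4 to 57.7 in E4 (48.8) and from 51.2 to 67.4 in TAM (55.8). In C5, where Ddah1 was at 3.60 CPM, Ddah2 was at 57.8 CPM, inside the range of the other OVX libraries. In C35, where Ddah1 was at 8.61 CPM, Ddah2 was at 67.4 CPM, above the other TAM libraries at 51.2 to 61.7. Its log2 fold change was 0.01 with E2 (-0.16 to 0.18, edgeR adjusted p = 0.986), -0.14 with E4 (-0.31 to 0.02, 0.198) and 0.08 with TAM (-0.09 to 0.24, 0.62), the narrowest intervals of the 10 genes.

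**Figure D4:**
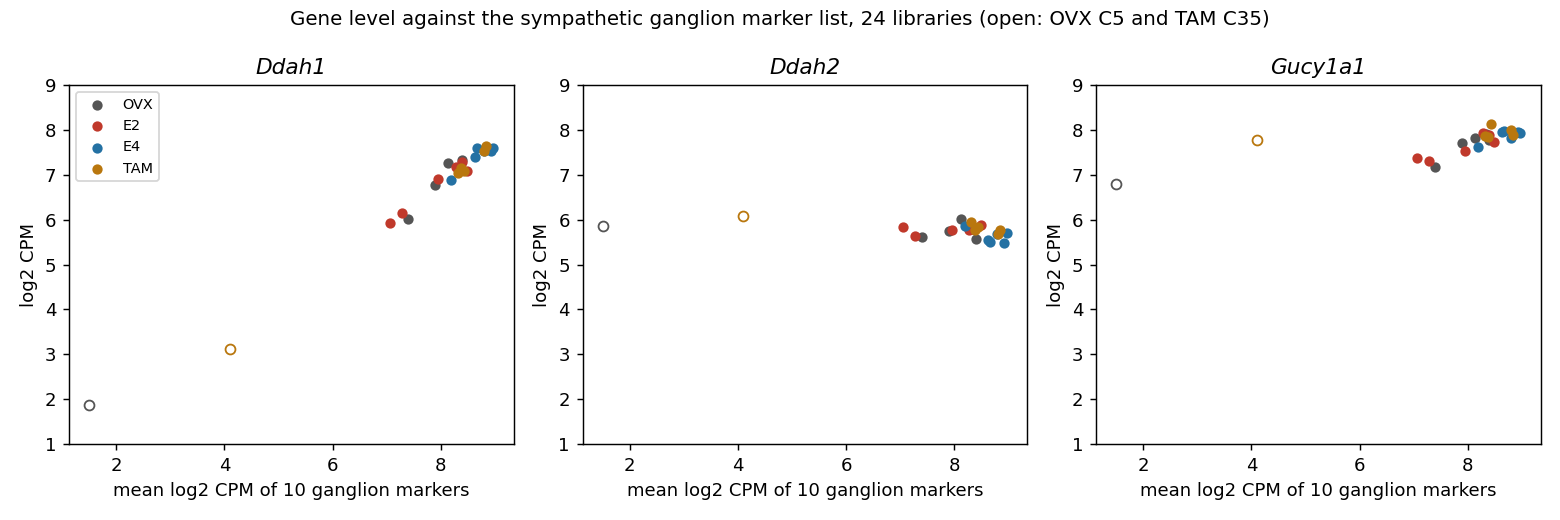
Log2 CPM of Ddah1, Ddah2 and Gucy1a1 (vertical axes) against the mean log2 CPM of 10 sympathetic ganglion markers (horizontal axes) in 24 libraries, colored by group, with open symbols for OVX C5 (list at 1.51) and TAM C35 (4.10). Ddah1 is low in both libraries and rises with the list among the rest, whereas Ddah2 in C5 (57.8 CPM) is inside the range of the other OVX libraries and in C35 (67.4 CPM) above the other TAM libraries.

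Per kb of exon, levels of the genes can be set side by side. In OVX arteries Cav1 stood at 255 CPM per kb and overlapped no other gene. Ddah2 (34.4), Gucy1b1 (29.8), Gucy1a1 (27.5) and Ddah1 (26.5) followed, and each of these overlapped the next in range. The range of Ddah1, from 0.905 in C5 to 40.4 CPM per kb, also covered those of the genes down to Prkg1. Nos3 (7.74) and Pde5a (6.73) overlapped each other, Prkg1 (2.41) overlapped neither Pde5a nor Nos2, its neighbors in the order, and Nos2 (0.596) and Nos1 (0.147) overlapped at the bottom. The first and the last 3 places were the same in all 4 groups. In E4 arteries Ddah1 stood in the second place at 43.7 CPM per kb, its range overlapping that of Gucy1a1 at 33.8.

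The rest of the pathway was represented by 78 further genes, listed by role, of which 75 were tested (Agxt2, Nppb and Cnga1 had too few counts). With E4, 11 of 75 passed, 7 higher and 4 lower, where 22% of all tested genes were called. With E2, 1 of 75 passed (4.14%), and with TAM, 1 of 75 passed (2.23%). The median log2 fold change over the 75 genes was 0.15 with E4, -0.02 with E2 and 0.11 with TAM, and that of all tested genes was -0.01, 0.01 and -0.00.

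With E4, 5 of 16 genes for binding partners of the synthases passed, against 22% of all tested genes. Hsp90ab1, a chaperone of the family that activates the endothelial synthase, was at 1275 ± 115 CPM in E4 and 772 ± 198 in OVX, a log2 fold change of 0.72 (edgeR adjusted p = 0.00642), and the groups did not overlap. Calm3, which encodes the synthases' calcium sensor calmodulin, was higher at 361 ± 34.0 against 242 ± 70.1 CPM (0.58, 0.039). The kinase gene Akt1 was higher by 0.29 (0.0118). Nostrin, whose product draws the endothelial synthase from the membrane, was lower at 0.950 ± 0.146 against 1.53 ± 0.307 CPM (-0.68, 0.00425), and its groups did not overlap. Cav2, the partner of caveolin-1, was lower at 181 ± 15.2 against 234 ± 28.9 CPM (-0.37, 0.0168).

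In arginine supply, 1 of 7 genes passed with E4, again against 22% of all tested genes. The arginine importer Slc7a1 was at 90.8 ± 11.5 CPM in E4 and 51.9 ± 20.1 in OVX, a log2 fold change of 0.81 (edgeR adjusted p = 0.0245), with no overlap. Pts, an enzyme of tetrahydrobiopterin synthesis, was the gene of 6 for this cofactor that passed (lower, -0.31, 0.0334), and Adh5, which reduces S-nitrosoglutathione, was that of 4 for S-nitrosothiol handling (lower, -0.23, 0.027). The cGMP exporter Abcc4 was at 24.5 ± 2.167 CPM in E4, 24.2 ± 3.99 in TAM and 16.8 ± 3.21 in OVX. It was higher with E4 (0.54, 0.00606) and with TAM (0.53, 0.0365). The natriuretic peptide receptor gene Npr2, whose exons overlap another gene, was higher (0.25, 0.0192), as was Pde6d (0.29, 0.0399). None of the 5 genes of methylarginine metabolism passed in any comparison with OVX.

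With E2, the gene that passed was Slc7a2, another arginine transporter whose exons overlap another gene, at 49.0 ± 2.62 CPM against 60.2 ± 7.33 in OVX (log2 fold change -0.30, edgeR adjusted p = 0.0362). Slc7a2 was also lower in E2 than in E4 (62.7 CPM, 0.36, 0.0071) and TAM (63.4 CPM, 0.37, 0.00607). In E4 against E2, 5 of 75 genes passed (12.6% of all tested genes), 3 higher (Slc7a2, Cbr1 and Pde6d) and 2 lower (Cav2 and Nostrin).

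Without OVX C5 and TAM C35, 13 of the 75 genes passed with E4 (22.3% of all genes in that fit), of which 8 were among the 11. With the ganglion list in the fit 11 passed (18.6% of all genes), of which 7 were among the 11. Slc7a1, Hsp90ab1, Akt1, Npr2, Nostrin, Cav2 and Abcc4 passed in all 3 fits. With the B cell list in the fit, 0 of 75 passed in E4 against OVX, where 0.471% of all genes passed.

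**Figure D5:**
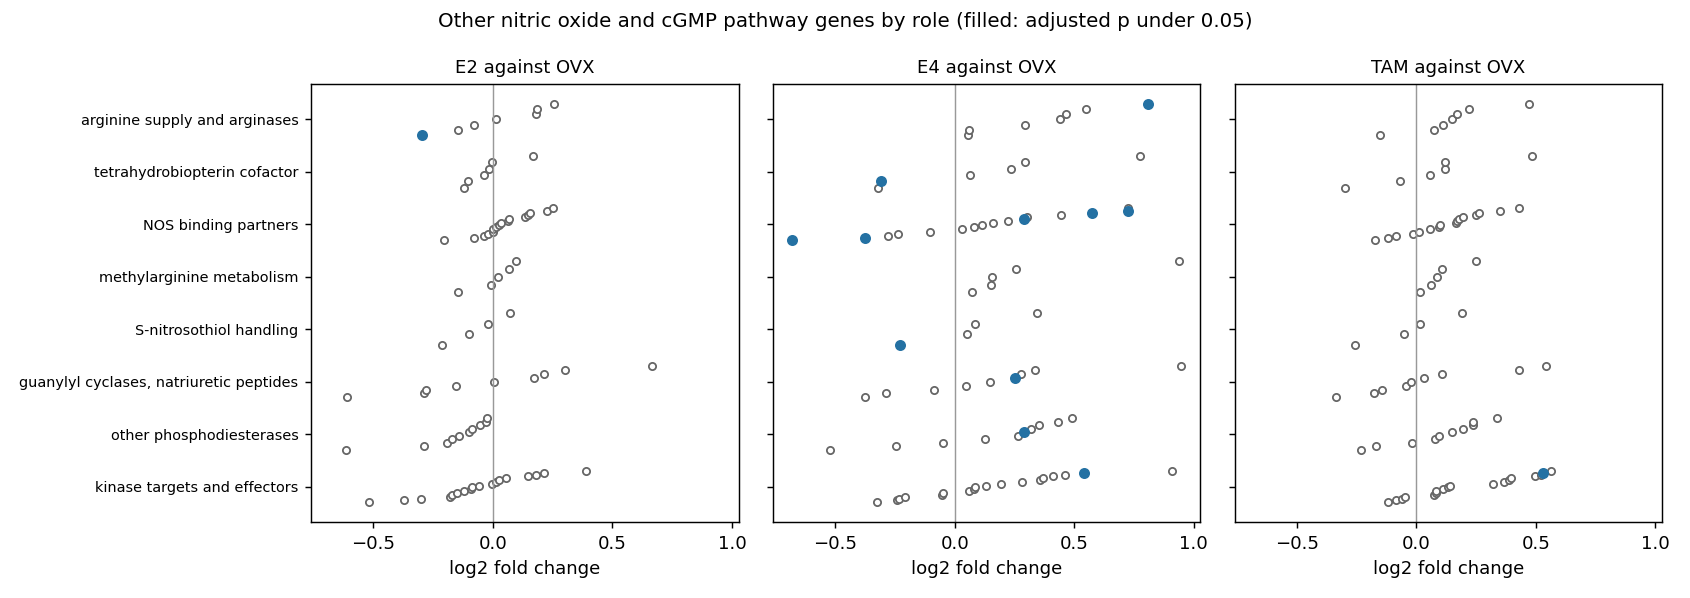
Log2 fold change (horizontal axes) of the 75 further pathway genes in E2, E4 and TAM against OVX, in rows by role. Filled symbols passed at an adjusted p under 0.05: 1 gene with E2, 11 with E4 (7 higher and 4 lower) and 1 with TAM.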

How the data were processed

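RNA sequencing libraries (stranded mRNA kit, paired ends) were made from carotid arteries of 24 mice. Per the submitters' processing notes, the authors used bcl2fastq 2.17, Trim Galore, Bowtie2 and featureCounts on mm10, and deposited an expected count per gene for each library, without normalization. The strand setting and the rule for shared reads are not given in the sources used here. Between 8.87 and 9.8% of genes had decimals, and counts were rounded. Genes were named by GENCODE mouse release 21.

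All 24 libraries entered 1 quasi-likelihood model in edgeR 4.0.16 (R 4.3.3). Library sizes were scaled by TMM, scarce genes were dropped by filterByExpr, and p-values were adjusted by Benjamini-Hochberg over the 25056 genes left, with a call at an adjusted p under 0.05. Log2 CPM used a prior count of 2. Standard errors were derived from the F statistic, intervals are 95%, and the exact permutation test of single genes used scipy 1.17.1. The procedure was tested on simulated data. Total counts were 24647246 to 64221401, and counting error weighs most on the scarce Nos1 and Nos2. Alternatives covered DESeq2 1.42.0, size factors, the filter, the groups in the fit, the number series, left-out libraries and marker lists as covariates, of which the endothelial and smooth muscle lists, the settings for the further pathway genes and those for the subunit ratio were chosen after seeing the data.

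The 10 genes and all lists were chosen with earlier results of these data known. The further pathway genes named are, for each comparison with OVX, up to 4 per direction with the largest change among those called with a mean of at least 1 CPM. Akt1, Npr2 and Pde6d, the genes named in E4 against E2 and in TAM against E2, and the subunit ratio were chosen after their values were seen.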

Additional observations from a re-analysis of the deposited data

Results flagged for a closer look

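Of the 40 sets of 6 libraries (10 genes in 4 groups), 5 held a library far from the rest by Dixon's criterion, and chance gives about 1 in 20. Ddah1 stood apart in 3 groups: it was 3.604 CPM in OVX C5 (64.6 to 161 in the other OVX libraries), 8.61 CPM in TAM C35 (132 to 199) and 117.7 CPM in E4 C39 (169 to 195). The sympathetic ganglion list stood at 1.51, 4.10 and 8.19 in these libraries, the lowest value of each group. Nos3 was 40.06 CPM in TAM C35, against 22.8 to 26.8 in the other TAM libraries. Nos2 was 0.9805 CPM in OVX C4, against 2.43 to 3.89 in the other OVX libraries.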

How the results depend on the processing

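No paired analysis was possible because the groups compared share no animal numbers. Counts of the 10 genes that passed are given with the share of all tested genes called in the same fit. In E4 against OVX, where Nos3 alone passed (22%), 2 passed with DESeq2 (Nos3 and Nos1, 24.9%), with the number series as a covariate (Nos3 and Nos2, 20.7%), in the first series alone (Nos3 and Nos1, 12.1%) and without OVX C5 and TAM C35 (Nos3 and Prkg1, 22.3%), 3 with only the 2 groups in the fit (Nos3, Nos1 and Prkg1, 18.3%), and 5 with the smooth muscle list (Nos3, Nos1, Cav1, Ddah2 and Prkg1, 31.9%). There were 0 in the second series alone (0.0196%) and with the ganglion (18.6%), B cell (0.471%), adipocyte (16.8%) or endothelial list (20.1%), and 0 to 3 without single libraries. In E4 against E2, where 0 passed (12.6%), there were 2 with only the 2 groups (Nos3 and Cav1, 22%) and in the first series (Nos1 and Cav1, 12.5%), 3 without C5 and C35 (Ddah1, Nos3 and Cav1, 25.6%), 1 (Nos3) with the ganglion (16.9%) or the endothelial list (14.7%), 4 with the smooth muscle list (Pde5a, Nos3, Cav1 and Ddah2, 29.2%) and 0 to 2 without single libraries. The adipocyte list gave 2 for E2 against OVX (Gucy1a1 and Nos2, 7.1%), and the smooth muscle list gave 2 for TAM against OVX (Nos3 and Nos1, 14.2%) and 2 for TAM against E2 (Nos3 and Cav1, 17.6%). Of the 75 further pathway genes, E2 against OVX gave 1 (4.14% of all genes), 2 without C5 and C35 (6.6%) and 4 with the ganglion (8.68%) or the endothelial list (7.45%). For E4 the 11 became 0 with the B cell list (0.471%), and for TAM the 1 (2.23%) became 5 with the ganglion list (5.73%), 0 with the B cell list (0.0439%) and 3 with the endothelial list (6.69%). Counting error weighs most on Nos1 and Nos2, at 0.874 to 5.47 CPM, while the intervals of Ddah1 were the widest.

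Of the 560 values of single genes under the other settings (10 genes in the 3 comparisons with OVX and in E4 against E2), 462 kept their direction and side of the threshold, 5 were no longer past it, 37 came past it and 56 changed direction, none of them a result that had passed. The threshold was an adjusted p under 0.05, except in the exact permutation test, where it was an unadjusted p under 0.05. Some of the 37 came past only this unadjusted threshold, such as Cav1 in E4 against OVX (exact permutation p = 0.0346). Those 56 log2 fold changes, whose cause was not tested, were the following. In the first number series alone, E2 against OVX gave Nos1 -0.056, Gucy1a1 -0.057, Prkg1 0.0015, Ddah1 -0.20 and Ddah2 -0.031, E4 against OVX gave Gucy1b1 0.0036, TAM against OVX gave Pde5a -0.048 and Ddah2 -0.048, and E4 against E2 gave Nos2 -0.50 and Gucy1b1 0.032. In the second number series alone, E2 against OVX gave Nos3 0.029, Cav1 -0.021 and Pde5a -0.17, TAM against OVX gave Nos3 0.15, Cav1 0.27 and Ddah1 -0.44, and E4 against E2 gave Nos1 -0.51 and Gucy1a1 -0.026. Without OVX C5 and TAM C35, E2 against OVX gave Nos3 0.020, Gucy1a1 -0.057 and Ddah1 -0.14, and TAM against OVX gave Prkg1 -0.0095. With the sympathetic ganglion list in the fit, E2 against OVX gave Nos3 0.037, Gucy1a1 -0.025 and Ddah1 -0.11, E4 against OVX gave Pde5a 0.037 and Ddah1 -0.11, and TAM against OVX gave Cav1 0.063 and Ddah1 -0.18. With the endothelial cell list in the fit, E2 against OVX gave Nos3 0.024, and E4 against OVX gave Pde5a 0.029. With the smooth muscle cell list in the fit, E2 against OVX gave Nos3 0.011 and Ddah1 -0.17, TAM against OVX gave Prkg1 -0.013, Pde5a -0.079 and Ddah2 -0.025, and E4 against E2 gave Nos2 -0.049. With the adipocyte list in the fit, E2 against OVX gave Cav1 -0.069 and Gucy1b1 0.15, TAM against OVX gave Nos2 0.088, Nos3 0.024, Cav1 0.20, Gucy1b1 -0.017 and Ddah1 -0.37, and E4 against E2 gave Gucy1a1 -0.23 and Ddah1 -0.74. With the B cell list in the fit, E2 against OVX gave Gucy1a1 -0.0070, Ddah1 -0.051 and Ddah2 -0.0085, E4 against OVX gave Pde5a 0.11, and TAM against OVX gave Cav1 0.12. With the number series as a covariate, E2 against OVX gave Ddah2 -0.0092, and E4 against E2 gave Nos2 -0.015. With DESeq2, TAM against OVX gave Cav1 0.0032. With DESeq2 size factors in edgeR, TAM against OVX gave Cav1 0.0032. As a difference of mean log2 CPM, E4 against E2 gave Nos2 -0.041. Without single libraries, 28 of 960 values changed direction, all of genes that had not passed, and the ranges were in TAM against OVX Cav1 -0.15 to 0.073, in E2 against OVX Ddah1 -0.14 to 0.28, Ddah2 -0.026 to 0.065, Gucy1a1 -0.057 to 0.14, Gucy1b1 -0.097 to 0.037, Nos3 -0.19 to 0.020 and Pde5a -0.026 to 0.13, in E4 against E2 Gucy1b1 -0.094 to 0.0071 and Nos2 -0.21 to 0.17, in E4 against OVX Gucy1b1 -0.12 to 0.0030.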
